A study of Mus musculus with 6 samples.

Results

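The MYC network and the ribosome-making genes that it is known to drive were followed here as 39 genes, found by their symbol among the 21853 genes of the deposited table. They were chosen by name and function: 7 transcription factors of the MYC network, 4 genes of RNA polymerase I, 10 proteins of small nucleolar ribonucleoproteins (snoRNPs) and their nucleolar chaperones, 6 of the small subunit processome and 40S maturation, 7 of large subunit assembly, and 5 of nucleotide and polyamine supply. Earlier results of these data were known when these genes were chosen. All 39 symbols were found, each on 1 row. The libraries came from C57BL/6J mouse embryonic fibroblasts lacking xCT, the cystine importer subunit, with an age of 12 days in the labels. All 6 libraries carry this knockout, so there was no wild-type group: 3 libraries are labelled with water (control) and 3 with red clover extract (RCE). Neither dose nor exposure time nor medium was given in the sources used here. Nor was it said that replicates came from separate cultures, so each p-value reflects how far the 6 libraries scatter, and part of that scatter could be technical.

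MYC proteins bind DNA only as partners of MAX, at E-box sequences, and raise the transcription of genes for growth. MNT and the MXD proteins pair with the same MAX and repress at the same sites, so the network is read as a balance between MYC and its antagonists. Ribosome production is the best known output of MYC: RNA polymerase I copies the ribosomal DNA, snoRNPs modify the transcript, the processome cuts the small subunit RNA free, and further factors assemble the large subunit, while pyrimidine, purine and polyamine synthesis supply the material.

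Values are FPKM, fragments scaled to transcript length and to library depth, so that levels of different genes can be compared per length. Depth, read from the steps between low values, lay between 45650000 and 58950000 fragments, and a library had 10766 to 10924 genes at 1 FPKM or more. The knocked-out gene, Slc7a11, was at 0.013 to 0.037 FPKM in control and 0.007 to 0.017 FPKM with RCE. All 12 fibroblast markers examined reached a mean of 1 FPKM, with a summed level of 6592 to 6869 FPKM in control and 5880 to 6179 FPKM with RCE. Defining markers of other cell types were near 0: Epcam had a mean of 0.0553 FPKM, Pecam1 0.0495, Ptprc 0.0522 and Sox2 0.0307, and Myod1 was at 0 in every library. In these lists 1 of 7 epithelial, 2 of 6 endothelial, 1 of 7 immune, 2 of 5 skeletal muscle and 1 of 5 neural markers reached a mean of 1 FPKM, the muscle pair being Acta1 (83.1 FPKM) and Des (46.6 FPKM). Their sums in control and with RCE were 2 to 2.89 and 1.26 to 2.42 FPKM for epithelial, 3.17 to 3.55 and 2.76 to 3.03 for endothelial, 5.16 to 5.76 and 4.11 to 4.9 for immune, 116 to 135 and 126 to 146 for muscle, and 10.1 to 11 and 11.9 to 12.7 for neural markers. The part of these shifts in the results was not tested. Markers of proliferation summed to 122 to 126 FPKM in control and 157 to 170 with RCE. Control and RCE libraries separated on a component with 58.1% of the variance, and both libraries numbered 1 stood apart from the other 4 on a component with 36.5%.

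With the extract, Mnt fell, Mycl, at a low level, rose, and Myc and Max did not pass the test. Of the ribosome-making and supply genes, led by Cad and Dkc1, 8 of 32 (25%) rose, beside 17.6% of all tested genes. None (0 of 32) fell, beside 6.77% of all. With the median-of-ratios scaling described below, 2 of the 32 were higher, beside 8.50% of all. Of 129 other ribosome biogenesis genes tested, which were no members and leave out supply, 13 (10.1%) were higher and 0 lower. With that scaling 2 of the 129 were higher. Changes are differences in log2(FPKM + 1), RCE minus control, which understates the change of low genes, and a call is a limma test with a Benjamini-Hochberg adjusted p below 0.05 over the 10870 genes whose mean reached 1 FPKM. Of the 39 members, 38 passed that filter, and only Mycn did not. Over the members tested, 9 were called higher, beside 17.6% of all tested genes, and 1 was called lower, beside 6.77% of all. As a share this was 23.7% higher and 2.63% lower. Mycl, 1 of the 9, passed the filter only through its RCE libraries, and without it 8 of 37 members (21.6%) were higher. The median change was 0.13 over the members and 0.08 over all tested genes, so an upward lean was also present in the whole table. Changes were positive for 89.5% of the members and for 70.2% of all tested genes. The 3 RCE values all lay above the 3 control values for 19 members (18 without Mycl) and all below for 1, beside 31.2% and 10.9% of all tested genes.

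Those counts rested on the scaling and on single libraries. With median-of-ratios scaling, which sets the median change of all genes to 0.00, 3 members (2 without Mycl) were higher and 1 lower. The shares of all tested genes were 8.50% and 10%, and the members' median was 0.05. Changes were then positive for 71.1% of the members and 50.2% of all tested genes. Without control replicate 2 or 3, 3 members were higher in each case, without RCE replicate 2 there were 2, and without RCE replicate 3 there were 4. The calls over all tested genes also varied widely when a single library was left out, as given in the closing part on processing. With the replicate number as a block, which assumes that equal numbers mark pairs, 27 members were higher and 2 lower, beside 46.6% and 15.9% of all. With both the block and the scaling, 12 were higher and 4 lower, beside 26.4% and 27.6%. Without both libraries numbered 1, 24 were higher and 1 lower, beside 40.1% and 13.6%.

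**Figure D1:**
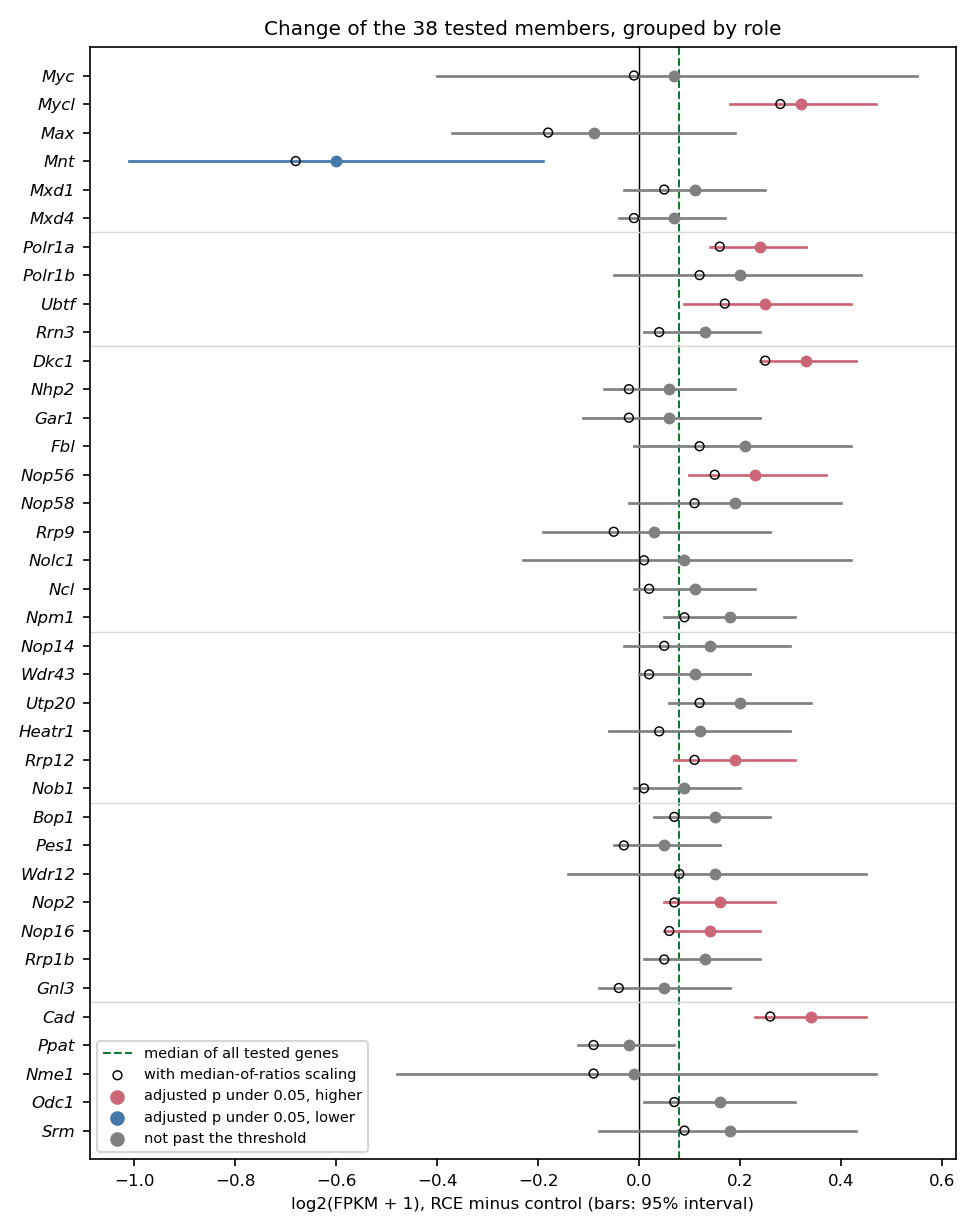
Change of each of the 38 tested members on the horizontal axis, as log2(FPKM + 1) of RCE minus control, with 95% intervals as bars and members grouped by role from MYC factors (top) to supply (bottom). Mnt, at -0.60, stands alone on the left, Cad (0.34) and Dkc1 (0.33) lie farthest right, and the open circles show the same changes after median-of-ratios scaling.

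The MYC factors differed widely in level. Myc (chromosome 15, 61985391 to 61990374 on mm10) was the abundant MYC gene, at 62.4, 44.4 and 45.1 FPKM in control replicates 1, 2 and 3 and at 68.5, 47.5 and 45.1 FPKM in RCE replicates 1, 2 and 3. The library numbered 1 was the highest of its group in both groups, and the groups overlapped. The change was 0.07 (SE 0.20, 95% interval -0.40 to 0.55, limma adjusted p = 0.822). With the block the adjusted p was 0.065, and without both libraries numbered 1 it was 0.305, and over all 17 alternatives it ran from 0.065 to 0.996.

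Mycn, the MYC of the early nervous system, was listed at 0.020, 0.014 and 0 FPKM in control and 0.016, 0 and 0.006 FPKM with RCE. For a transcript as long as its longest in the annotation, 1 fragment equals 0.00634 to 0.00819 FPKM, so these are 0 to 2.9 fragments a library, and no difference was detectable at this depth (p = 0.8 in a 2-sided exact permutation test, which cannot go below 0.1 with groups of 3). Mycl, the third MYC gene, was at 0.846, 0.820 and 0.859 FPKM in control and 1.11, 1.39 and 1.43 FPKM with RCE. All RCE values were above all control values. The mean went from 0.842 ± 0.0199 to 1.31 ± 0.177 FPKM (SD, n = 3), a rise of 55.6% (log2 change 0.32, SE 0.061, limma adjusted p = 0.0135). Since Mycl passed the filter of 1 FPKM only through its RCE libraries, its call is given as a value. The adjusted p was 0.0544 without control replicate 2, 0.05 without control replicate 3 and 0.0606 without RCE replicate 2, and ran from 2.96e-05 to 0.0606 over 16 alternatives. Its level stayed a small fraction of that of Myc, with a ratio of 0.0170 ± 0.00301 in control and 0.0257 ± 0.00838 with RCE (SD, n = 3).

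Max, the common partner, was at 76.8, 61.5 and 62.8 FPKM in control and 71.4, 59.6 and 57.6 FPKM with RCE. Each RCE value lay below the control of the same number, while the groups overlapped. The change was -0.09 (95% interval -0.37 to 0.19, limma adjusted p = 0.613), and with the replicate block it was called lower (adjusted p = 0.0167), as it was with block and scaling together (-0.18, adjusted p = 8.82e-04). Without both libraries numbered 1 its adjusted p was 0.0613, and over the 17 alternatives it ran from 8.82e-04 to 0.954.

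Mnt (ENSMUSG00000000282, chromosome 11, 74830920 to 74845725 on mm10), the broadly expressed MAX partner that represses MYC sites, was the member that fell. Its level was 22, 15.9 and 16.0 FPKM in control and 14.2, 10.3 and 9.95 FPKM with RCE. The highest RCE library, numbered 1, was below the lowest control library. The mean fell by 35.9%, with means of 17.9 ± 3.47 and 11.5 ± 2.38 FPKM (SD, n = 3; difference -0.60 in log2, SE 0.17, limma adjusted p = 0.0469). With the replicate block the adjusted p was 1.70e-06, and without both libraries numbered 1 it was 9.33e-06. Without the block the call ended when control replicate 1, 2 or 3 was left out (adjusted p = 0.0802, 0.0868 and 0.0888) and when RCE replicate 2 or 3 was (0.149 and 0.139). It also ended with no low-value filter (0.0706), a minimum mean of 5 FPKM (0.0637) and quantile normalization (0.0563). The change itself stayed between -0.75 and -0.46 over the 17 alternatives.

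A ratio of 2 genes within a library does not depend on how libraries are scaled. This measure was chosen after the values had been seen. The ratio of Mnt to Myc was 0.352, 0.358 and 0.354 in control and 0.208, 0.217 and 0.221 with RCE. It was nearly constant within each group although both genes were higher in the libraries numbered 1. The means were 0.355 ± 0.00336 and 0.215 ± 0.00664 (SD, n = 3, 2-sided exact permutation test p = 0.1, the smallest possible). Mnt to Max also separated the groups, at 0.266 ± 0.0173 and 0.182 ± 0.0154 (exact permutation p = 0.1). The ratio of Myc to Max was 0.751 ± 0.0534 and 0.846 ± 0.0983, with overlapping groups (exact permutation p = 0.3). The other repressors did not separate the groups in this way. Mxd4 to Myc was 0.274 ± 0.0456 in control and 0.275 ± 0.0514 with RCE (exact permutation p = 0.9). Mxd1 to Myc was 0.0436 ± 0.00611 and 0.0464 ± 0.0067 (exact permutation p = 0.5).

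**Figure D2:**
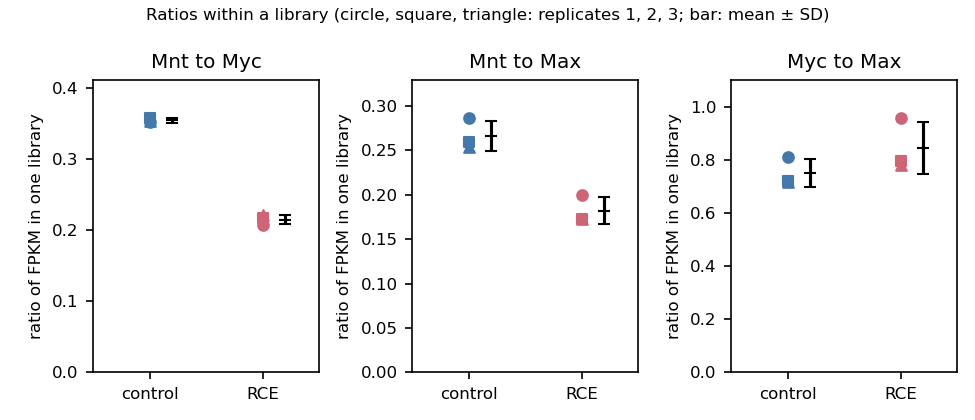
FPKM of one gene divided by that of another in the same library (vertical axis, from 0), for 3 control and 3 RCE libraries, with bars at mean ± SD. Mnt to Myc sits at 0.352 to 0.358 in control and 0.208 to 0.221 with RCE, Mnt to Max also separates, and Myc to Max overlaps.

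The MXD repressors, usually linked to differentiation and to leaving the cell cycle, did not pass the test. Mxd1 was at 2.29, 2.15 and 2.07 FPKM in control and 2.65, 2.43 and 2.22 FPKM with RCE, overlapping by 1 library. Its change was 0.11 (95% interval -0.03 to 0.25, limma adjusted p = 0.206, and 0.0336 with the replicate block). Mxd4 was at 13.9, 13.7 and 13.2 FPKM in control and 14.8, 14.2 and 14.0 FPKM with RCE. The RCE values lay just above the control values (0.07, 95% interval -0.04 to 0.17, adjusted p = 0.3), and with median-of-ratios scaling the difference was -0.01. In order of mean control level the factors ran Max (67.0 ± 8.45 FPKM), Myc (50.6 ± 10.2), Mnt (17.9 ± 3.47), Mxd4 (13.6 ± 0.367), Mxd1 (2.17 ± 0.111), Mycl and Mycn. Among neighbours in this order the control ranges overlapped for Max and Myc and for no other pair of the 6 tested factors, while with RCE the ranges of Mnt and Mxd4 also overlapped.

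**Figure D3:**
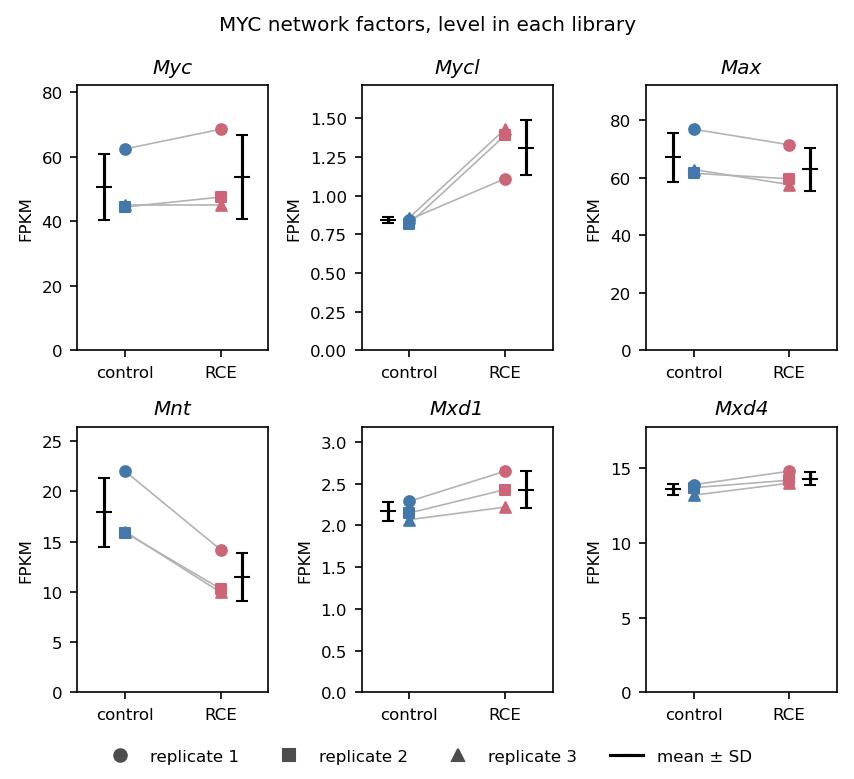
FPKM (vertical axes, each from 0) of 6 MYC network factors in 3 control and 3 RCE libraries, with grey lines joining libraries of the same number and bars at mean ± SD. Mnt drops in all 3 pairs, Mycl is higher in all 3, and Myc, Max and Mnt are highest in the libraries numbered 1.

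The promoters of the members were read from RefSeq (GRCm38.p6, the same build as mm10), from 250 bases before to 50 after each start, and searched for the canonical E-box CACGTG, which reads the same on both strands. Of the 39 members 33 were in that table, and Myc, Fbl, Npm1, Rrp12, Bop1 and Srm were not. The motif stood in any promoter of 9 of these 33 genes (27.3%), beside 12.3% of 8569 tested genes and 8.09% of all 27025 genes with promoters listed. Counted by promoter, 10 of 42 (23.8%) of the members' promoters held it, beside 10.3% of those of tested genes. The 9 were Max, Mnt, Mxd4, Rrn3, Utp20, Wdr43, Nop2, Pes1 and Nme1, and of the 10 snoRNP and chaperone genes, 0 of the 8 found in the table held it. Of the 9 genes with the motif, Nop2 was called higher and Mnt lower, where 17.6% and 6.77% of all tested genes were. The calls were lost in 9 of 17 alternatives for Nop2 and 8 of 17 for Mnt. A link between motif and change was not tested. A match is a run of letters and not evidence of binding. The 250 bases before the start are shown for Mnt, the member that fell, with its motif beginning at -123 from the start, for the polymerase I factor Rrn3, which holds the motif at -215 and -48, for Nop2, which rose and holds it at -60, and for Dkc1 and Cad, the leading higher members, which have no such letters in this window. Capitals mark the E-box.
Mnt promoter (chr11:74830674-74830923, + strand): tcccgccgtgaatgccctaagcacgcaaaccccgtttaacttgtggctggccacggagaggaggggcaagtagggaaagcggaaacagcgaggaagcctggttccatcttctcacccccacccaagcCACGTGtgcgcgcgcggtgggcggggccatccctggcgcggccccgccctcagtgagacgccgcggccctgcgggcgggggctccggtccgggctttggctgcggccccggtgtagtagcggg
Rrn3 promoter (chr16:13780449-13780698, + strand): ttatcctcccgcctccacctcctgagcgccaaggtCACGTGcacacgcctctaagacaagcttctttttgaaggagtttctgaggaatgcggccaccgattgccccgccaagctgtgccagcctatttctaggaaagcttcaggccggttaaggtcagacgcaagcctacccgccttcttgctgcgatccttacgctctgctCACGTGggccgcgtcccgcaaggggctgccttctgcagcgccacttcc
Nop2 promoter (chr6:125131633-125131882, + strand): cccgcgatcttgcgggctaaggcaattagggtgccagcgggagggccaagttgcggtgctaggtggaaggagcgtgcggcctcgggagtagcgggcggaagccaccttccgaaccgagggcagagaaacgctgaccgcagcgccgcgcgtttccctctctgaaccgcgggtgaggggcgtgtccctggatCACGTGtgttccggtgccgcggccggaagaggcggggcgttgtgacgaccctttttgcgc
Dkc1 promoter (chrX:75095604-75095853, + strand): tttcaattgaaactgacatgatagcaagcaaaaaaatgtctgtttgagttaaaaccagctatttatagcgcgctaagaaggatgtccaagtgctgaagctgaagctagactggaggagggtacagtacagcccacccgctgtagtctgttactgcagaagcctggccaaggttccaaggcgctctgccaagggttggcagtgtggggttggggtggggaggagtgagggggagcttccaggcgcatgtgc
Cad promoter (chr5:31054530-31054779, + strand): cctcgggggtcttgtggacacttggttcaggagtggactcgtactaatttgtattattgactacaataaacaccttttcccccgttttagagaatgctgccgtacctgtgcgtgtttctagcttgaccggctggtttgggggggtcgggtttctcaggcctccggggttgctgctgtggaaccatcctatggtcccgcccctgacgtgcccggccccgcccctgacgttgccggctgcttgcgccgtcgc

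All 4 genes of RNA polymerase I had positive changes, as did 70.2% of all tested genes. Of the 4, 2 were called higher, beside 17.6% of all tested genes. Polr1a (chromosome 6, 71909053 to 71984935), the largest catalytic subunit, was at 15.6, 15.3 and 15.4 FPKM in control and 18.7, 18.4 and 18 FPKM with RCE. The groups did not overlap and the spread within each was small. The mean rose by 19.0%, with means of 15.4 ± 0.176 and 18.4 ± 0.348 FPKM (SD, n = 3; difference 0.24 in log2, SE 0.039, limma adjusted p = 0.00810). With median-of-ratios scaling the change was 0.16 and the adjusted p 0.0508, and without RCE replicate 2 the adjusted p was 0.0506, and it was called under the other 15 of 17 alternatives. Over all 17 the adjusted p ran from 6.04e-05 to 0.0508.

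Ubtf, the factor that keeps ribosomal DNA open and loads the polymerase, was at 17.3, 15.5 and 15.3 FPKM in control and 20.7, 18.7 and 18.4 FPKM with RCE. The libraries numbered 1 were again the highest of each group, and the groups did not overlap. It rose by 20.2% (log2 change 0.25, SE 0.068, limma adjusted p = 0.0406, and 1.22e-04 with the replicate block). Over 17 alternatives the adjusted p ran from 1.22e-04 to 0.184. Median-of-ratios scaling ended the call (0.184), as did quantile normalization (0.0965), no low-value filter (0.0540) and a minimum mean of 5 FPKM (0.0527). It ended as well without control replicate 2 or 3 (0.132 and 0.134) or without RCE replicate 1, 2 or 3 (0.0673, 0.105 and 0.0765).

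Polr1b, the other large subunit of the active site, was at 6.15, 7.44 and 6.95 FPKM in control and 6.80, 8.47 and 8.75 FPKM with RCE. Here the libraries numbered 1 were the lowest of each group, and the groups overlapped. The change was 0.20 (95% interval -0.05 to 0.44, limma adjusted p = 0.22), and it was called higher with the block (adjusted p = 0.00309) and without RCE replicate 1 (0.30, adjusted p = 0.041, within a range of 0.0023 to 0.523 over the alternatives). Rrn3, the factor that makes the polymerase competent to start, was at 32.7, 35.2 and 34.1 FPKM in control and 36.2, 37.6 and 37.9 FPKM with RCE. The groups did not overlap (0.13, 95% interval 0.01 to 0.24, adjusted p = 0.1, and 0.00323 with the block), but with median-of-ratios scaling the change was 0.04. Of 16 other genes of polymerase I and its initiation factors, 2 (12.5%) were higher and 0 lower, with a median of 0.10. This is beside 17.6% higher and 6.77% lower of all tested genes. The 2 were Taf1a, a subunit of the selectivity factor (5.63 to 6.83 FPKM, 0.24, adjusted p = 0.0326), and the termination factor Ttf1 (0.21, adjusted p = 0.0146), which was named after its value was seen.

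All 10 snoRNP and chaperone genes had positive changes, as did 70.2% of all tested genes. Their median was 0.14, and 2 of the 10 (20%) were called higher, beside 17.6% of all tested genes. With median-of-ratios scaling Nhp2, Gar1 and Rrp9 turned negative (-0.02, -0.02 and -0.05). Dkc1 (ENSMUSG00000031403, chromosome X, 75095854 to 75109777), the pseudouridine synthase of H/ACA snoRNPs and a component of telomerase, was at 15.8, 15.9 and 15.9 FPKM in control and 19.8, 20.3 and 20.6 FPKM with RCE. The values were tight within each group, with no sign of the replicate 1 gap. It rose by 27.8%, with means of 15.8 ± 0.0848 and 20.2 ± 0.404 FPKM (SD, n = 3; difference 0.33 in log2, SE 0.038, limma adjusted p = 0.00269). The call held under all 17 alternatives (adjusted p 1.35e-05 to 0.0224), with a change of 0.25 to 0.35. The end of Mpp1, a gene on the opposite strand, shares exon sequence with Dkc1 in the GENCODE M21 annotation, and Mpp1 changed by 0.09 (adjusted p = 0.534).

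The partners of Dkc1 in the same particle did not pass the test. Nhp2 had a change of 0.06 (95% interval -0.07 to 0.19) and Gar1 also of 0.06 (-0.11 to 0.24), both with overlapping groups, and neither was called under any alternative run. The difference between Dkc1 and these partners was not tested. Among the proteins of C/D snoRNPs, which methylate ribosomal RNA, Nop56 was at 79.2, 75.1 and 74.1 FPKM in control and 94.7, 86.4 and 88.1 FPKM with RCE. The groups did not overlap. It rose by 17.9% (log2 change 0.23, SE 0.055, limma adjusted p = 0.0269, and 1.53e-04 with the block). Over 17 alternatives the adjusted p ran from 1.53e-04 to 0.158, and the call was lost under median-of-ratios scaling (0.158) and without control replicate 2 or 3 (0.0975 and 0.0993) or RCE replicate 2 or 3 (0.0697 and 0.0768). Fbl, the methyltransferase fibrillarin, and Nop58 had changes of 0.21 and 0.19 (adjusted p = 0.139 and 0.160), and both were called higher with the block (2.69e-04 and 0.00198), also when median-of-ratios scaling was added (0.00431 and 0.0320). Rrp9, the U3 snoRNP protein, had a change of 0.03 and was called under none of the alternatives.

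Npm1, nucleophosmin, was the most abundant member and ranked 80 of the 10870 tested genes by mean level. It was at 457, 451 and 463 FPKM in control and 532, 528 and 495 FPKM with RCE, without overlap. The change was 0.18 (95% interval 0.05 to 0.31, limma adjusted p = 0.0502), just short of the threshold, and it was called with the block (0.00266), though not with block and scaling together (0.0562). Npm1 has processed pseudogenes that could share its reads. Ncl, nucleolin, was at 128, 128 and 135 FPKM in control and 145, 140 and 136 FPKM with RCE, so that the lowest RCE value was just above the highest control value (0.11, 95% interval -0.01 to 0.23, adjusted p = 0.161, and 0.0241 with the block). Nolc1, a snoRNP chaperone, was dominated by the libraries numbered 1 (44.4 against 34.7 and 35.1 FPKM in control, 47.9 against 37.0 and 37.3 with RCE), and its change was 0.09 (adjusted p = 0.657, and 0.00952 with the block). Of 12 other snoRNP and snoRNP assembly genes tested, 0 were called in either direction in limma, beside 17.6% higher and 6.77% lower of all tested genes. At an unadjusted p under 0.05, 3 were higher and 0 lower, beside 3099 and 1031 of the 10870 tested genes. With the block 5 were higher and 0 lower, beside 46.6% and 15.9% of all tested genes, and the median was 0.07.

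**Figure D4:**
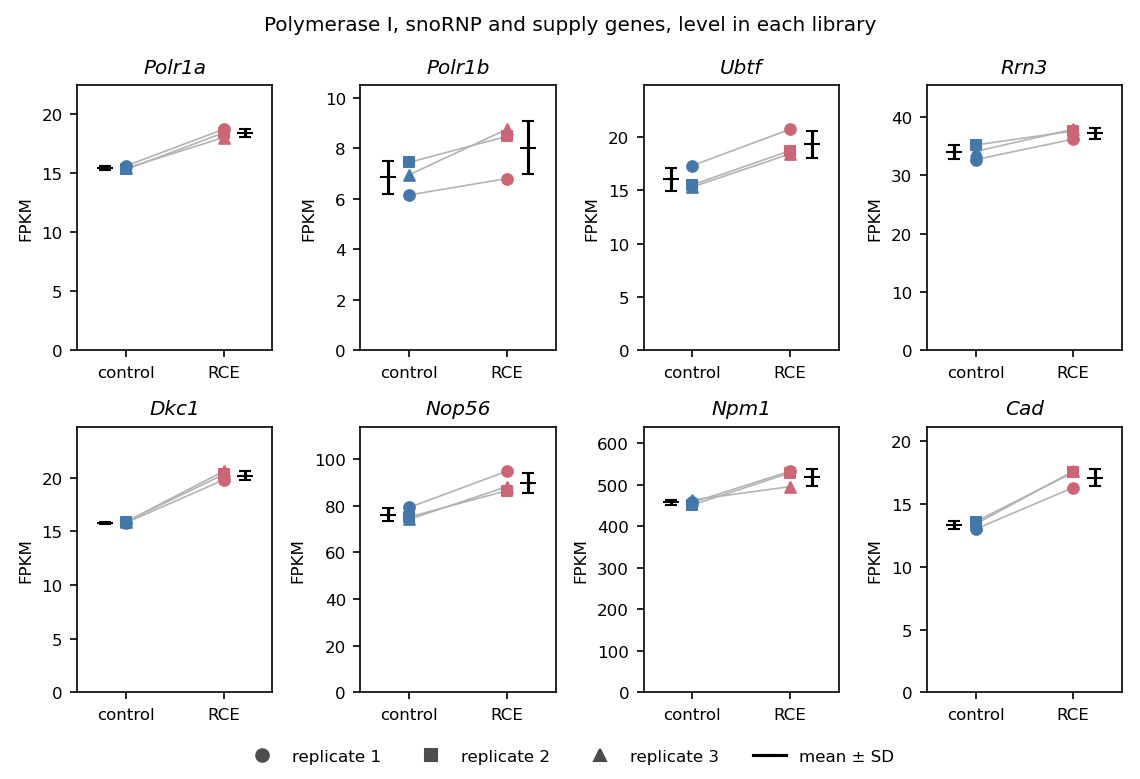
FPKM (vertical axes, each from 0) of the 4 polymerase I genes and of Dkc1, Nop56, Npm1 and Cad in 3 control and 3 RCE libraries, with grey lines joining libraries of the same number and bars at mean ± SD. Every line runs upward; Polr1b alone among these 8 has overlapping groups.

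Changes in the small subunit processome were small: all 6 members had positive changes of 0.09 to 0.20, and 1 passed the test. Of all tested genes, 70.2% had positive changes and 17.6% were called higher. Rrp12, which helps export the pre-ribosomal particles, was at 18.1, 16.8 and 16.6 FPKM in control and 20.4, 19.2 and 19.5 FPKM with RCE. The groups did not overlap, and the mean rose by 14.7% (log2 change 0.19, SE 0.051, limma adjusted p = 0.0408, and 6.26e-04 with the block). Over 17 alternatives the adjusted p ran from 4.60e-04 to 0.264. Losses of the call came with median-of-ratios scaling (0.264), quantile normalization (0.102) and a minimum mean of 5 FPKM (0.0504). It ended without control replicate 2 or 3 (0.135 and 0.138) and without RCE replicate 1, 2 or 3 (0.0777, 0.106 and 0.111).

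Nop14, a processome component, was the most abundant of the 6, at 46.7, 41.8 and 43.4 FPKM in control and 51.9, 47.8 and 45.5 FPKM with RCE, with an overlap (0.14, limma adjusted p = 0.191, and 0.00477 with the block). Wdr43, of the subcomplex that links processome and polymerase I, was at 33.9, 33.1 and 34.7 FPKM in control and 38.1, 35.9 and 35.8 FPKM with RCE. Its groups did not overlap (0.11, adjusted p = 0.140, and 0.0131 with the block). The large scaffold Utp20 came next to the threshold (0.20, 95% interval 0.06 to 0.34, adjusted p = 0.0557, and 4.88e-04 with the block), and it was called without RCE replicate 1 (0.25, adjusted p = 0.026, within 2.90e-04 to 0.188 over the alternatives). Heatr1 and the endonuclease Nob1, which makes the last cut of 18S ribosomal RNA, had changes of 0.12 and 0.09 (adjusted p = 0.286 and 0.165, and 0.0111 and 0.0101 with the block). With the block, 6 of 6 were higher, beside 46.6% of all tested genes. When median-of-ratios scaling was added, 2 of 6 were higher, beside 26.4% of all.

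Of 49 other processome and 40S genes, 7 (14.3%) were higher and 0 lower, beside 17.6% and 6.77% of all tested genes, with a median of 0.10. Among those with a mean of at least 5 FPKM, the 3 with the smallest p were Noc4l (14.5 ± 0.455 to 17.7 ± 0.293 FPKM, 0.27, limma adjusted p = 0.00715), Utp6 (0.16, adjusted p = 0.0264) and Aatf (0.18, adjusted p = 0.0284). With median-of-ratios scaling 2 of the 49 were higher, beside 8.50% of all tested genes, and the median was 0.02, near the 0.00 of all genes.

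Large subunit assembly gave a like picture: all 7 members had positive changes of 0.05 to 0.16, where 70.2% of all tested genes were positive. Of these 7, 2 were called higher, beside 17.6% of all tested genes, and Pes1 and Gnl3 turned negative with median-of-ratios scaling (-0.03 and -0.04). Nop2, which methylates 28S ribosomal RNA, was at 53.2, 51.5 and 50.3 FPKM in control and 59.2, 57.1 and 57.2 FPKM with RCE. The groups did not overlap, and the mean rose by 11.9% (log2 change 0.16, SE 0.044, limma adjusted p = 0.043, and 8.08e-04 with the block). Nop16, an assembly factor whose gene is a known MYC target, was at 28.9, 28.7 and 27.8 FPKM in control and 31.5, 31.3 and 32.0 FPKM with RCE, a rise of 10.9% (0.14, SE 0.040, adjusted p = 0.0421, and 0.00226 with the block). Both calls were near the threshold, and over 17 alternatives the adjusted p ran from 6.84e-04 to 0.359 for Nop2 and from 0.00127 to 0.37 for Nop16. Leaving out any 1 library ended them (adjusted p = 0.0518, 0.132 and 0.146 for Nop2 and 0.0666, 0.115 and 0.145 for Nop16 without control replicate 1, 2 and 3, and 0.081, 0.129 and 0.117 for Nop2 and 0.0656, 0.136 and 0.146 for Nop16 without RCE replicate 1, 2 and 3), as did median-of-ratios scaling (0.359 and 0.37) and quantile normalization (0.0524 and 0.0847).

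The PeBoW complex, needed for the maturation of 28S and 5.8S ribosomal RNA, is formed by Pes1, Bop1 and Wdr12. Bop1 had a change of 0.15 (95% interval 0.03 to 0.26, limma adjusted p = 0.0685, and 0.00241 with the block) without overlap of the groups, and it was called without control replicate 1 (0.18, adjusted p = 0.0438, within 0.00127 to 0.466 over the alternatives). Its opposite-strand neighbour Mroh1, which shares exon sequence, was lower (-0.22, adjusted p = 0.0185), and use of strand in counting was not given in the sources used here. Wdr12, the lowest of these genes, at 4.17 ± 0.716 and 4.73 ± 0.562 FPKM (SD, n = 3), had a change of 0.15 (adjusted p = 0.404, and 0.00803 with the block), and Pes1 of 0.05 (95% interval -0.05 to 0.16, adjusted p = 0.426, and 0.0434 without both libraries numbered 1). Rrp1b had 0.13 (adjusted p = 0.106, and 0.0137 with the block). Gnl3, the GTPase nucleostemin, was at 54.7, 58.4 and 56.2 FPKM in control and 55.0, 60.0 and 60.4 FPKM with RCE, with overlap, and was called under none of the alternatives (0.05, 95% interval -0.08 to 0.18). Of 52 other large subunit assembly genes 4 (7.69%) were higher and 0 lower, beside 17.6% and 6.77% of all tested genes, with a median of 0.10. The 4 were the helicases Ddx51 (4.89 to 5.70 FPKM, 0.19) and Ddx55 (0.19), Nol9 (0.17), and Ftsj3 (0.16), the last named after its value was seen. Pooled with the other polymerase I, snoRNP and processome genes, 13 of 129 (10.1%) were higher and 0 lower, beside the same 17.6% and 6.77%.

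The nucleotide and polyamine genes had changes from -0.02 to 0.34, and 1 of 5 was called higher, beside 17.6% of all tested genes. Cad (ENSMUSG00000013629, chromosome 5, 31054780 to 31078479), whose protein carries the opening steps of pyrimidine synthesis, was at 13.0, 13.6 and 13.4 FPKM in control and 16.3, 17.5 and 17.6 FPKM with RCE. The groups were well apart. It rose by 28.7%, with means of 13.3 ± 0.335 and 17.1 ± 0.699 FPKM (SD, n = 3; difference 0.34 in log2, SE 0.047, limma adjusted p = 0.00477). The call held under all 17 alternatives (adjusted p 1.43e-05 to 0.0317), with a change of 0.26 to 0.37.

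Ppat, which commits phosphoribosyl pyrophosphate to purine synthesis, was at 5.99 ± 0.157 and 5.89 ± 0.111 FPKM (SD, n = 3, change -0.02, 95% interval -0.12 to 0.07, limma adjusted p = 0.746). Its interval lies below the change of Cad, while the difference between the genes was not tested. Ppat shares exon sequence with Paics on the opposite strand. Nme1, a nucleoside diphosphate kinase, was at 21.4, 30.2 and 31.8 FPKM in control and 21.3, 30.3 and 31.4 FPKM with RCE. Libraries of the same number were nearly equal, and the replicate 1 libraries were far lower in both groups (-0.01, 95% interval -0.48 to 0.47). Its exons overlap those of Gm20390, a protein-coding gene on the same strand at 293 and 283 FPKM, so reads could be split between them. With block and median-of-ratios scaling together, Ppat and Nme1 were called lower (both -0.09, adjusted p = 0.0337 and 0.0176).

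For polyamines, Odc1, ornithine decarboxylase and a classic MYC target, was at 61.1, 68.7 and 65.6 FPKM in control and 69.8, 73.1 and 75.7 FPKM with RCE, without overlap (0.16, 95% interval 0.01 to 0.31, limma adjusted p = 0.105, and 0.00213 with the block). Srm, spermidine synthase, was at 90.9, 79.4 and 72.3 FPKM in control and 102, 84.5 and 88.3 FPKM with RCE, with overlap (0.18, adjusted p = 0.269, and 0.00372 with the block). For 36 other genes linked to nucleotides and polyamines, from synthesis to breakdown, the median was 0.08, equal to that of all tested genes. Of these, 4 (11.1%) were higher and 0 lower, beside 17.6% and 6.77% of all tested genes. The 4 were Uck1, a uridine and cytidine kinase (12.4 ± 0.423 to 15.4 ± 0.354 FPKM, 0.30, adjusted p = 0.00588), Pfas of purine synthesis (0.23, adjusted p = 0.00650), Amd1, which makes the propylamine donor for polyamines (0.36, adjusted p = 0.0388), and Dhodh of pyrimidine synthesis (0.34, adjusted p = 0.02), which was named after its value was seen. Sat1, which starts polyamine breakdown, went the other way, at 147, 201 and 196 FPKM in control and 101, 135 and 142 FPKM with RCE (-0.52, adjusted p = 0.0684, and 5.22e-06 with the block), also named after its value was seen.

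By role, the median changes were 0.22 for polymerase I, 0.16 for supply, 0.14 for snoRNP proteins and for large subunit assembly, 0.13 for the processome and 0.07 for the MYC factors, beside 0.08 for all tested genes. After median-of-ratios scaling they were 0.14, 0.07, 0.06, 0.06, 0.05 and -0.01. Differences between roles were not tested. Over all 38 tested members, 29 (76.3%) were higher in 3 of 3 pairs of libraries of the same number, beside 56.5% of all tested genes. The 80 genes of cytosolic ribosomal proteins that passed the filter had a median of 0.04, and limma called 0 of them in either direction (1 higher and 0 lower at an unadjusted p under 0.05, 7 higher and 1 lower with the block, 0 higher and 14 lower with block and scaling). Of all tested genes, 46.6% were higher and 15.9% lower with the block, and 26.4% and 27.6% with block and scaling. At an unadjusted p under 0.05 in limma, 3099 of all 10870 were higher and 1031 lower. Many of the ribosomal protein genes have processed pseudogenes. Of the 18 proliferation markers, 13 (72.2%) were higher and 0 lower, beside 17.6% and 6.77% of all tested genes, with a median of 0.41. Among those with a mean of at least 5 FPKM the smallest p belonged to Mcm3 (0.56), Mcm2 (0.45) and Top2a (0.55). Their part in the changes of Cad, Dkc1 and the other members was not tested, and in bulk RNA a larger share of dividing cells and more RNA per cell cannot be told apart.

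Replicate 1 set a second axis among the members. Myc, Mnt, Max, Nolc1 and Srm were higher in the replicate 1 library than in the mean of replicates 2 and 3 in both groups by 0.2 or more in log2(FPKM + 1), and Nme1, Wdr12 and Polr1b were lower by as much. The gap was 0.47 in control and 0.56 with RCE for Myc, 0.44 and 0.45 for Mnt, and -0.52 and -0.51 for Nme1. Across the 38 members the gaps in control and RCE correlated with r = 0.94, and across all 10870 tested genes with r = 0.92. These are correlations across genes, which share the same 6 libraries. For 12 of the 38 members (31.6%) the gap was larger than the change with RCE in both groups and of 1 sign, beside 40.5% of all tested genes. What the replicate number stands for was not given in the sources used here.

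**Figure D5:**
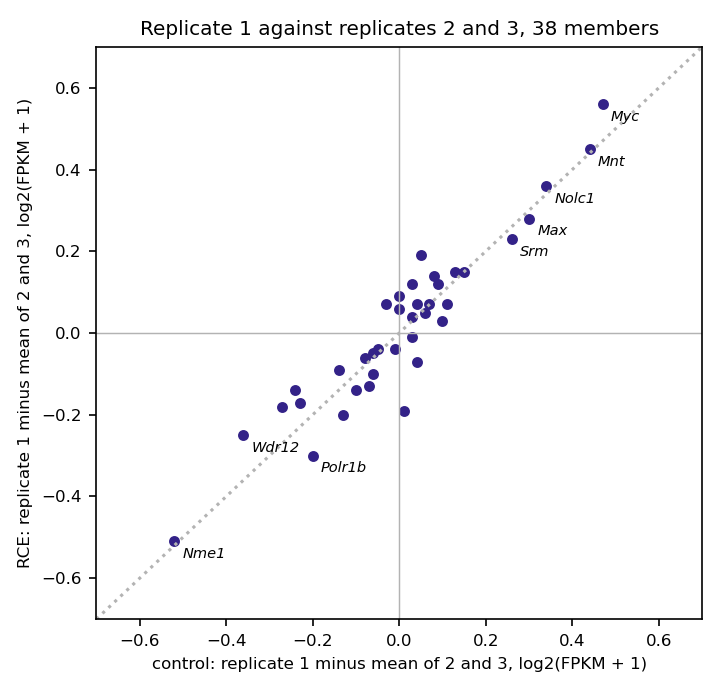
Level in the replicate 1 library minus the mean of replicates 2 and 3, in log2(FPKM + 1), for control (horizontal axis) and RCE (vertical axis), with 1 point for each of the 38 members and the dotted line marking equal gaps. The points follow the line, from Nme1 (-0.52 and -0.51) to Myc (0.47 and 0.56), and the 8 named genes have gaps of at least 0.2 in both groups.

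Some members are also hosts of small nucleolar RNA genes. In the GENCODE M21 annotation, 7 of the 39 genes (17.9%) held annotated small nucleolar RNA genes on the same strand within their span, 20 in all, beside 2.11% of all tested genes. The 7 were Dkc1, Nop56, Nop58, Ncl, Wdr43, Gnl3 and Odc1, with 5 in Nop56 and 4 in Nop58. Small nucleolar RNAs are usually cut from the introns of such hosts. The table holds protein-coding genes, and the small RNAs were not analysed here. In addition, 15 of the 39 members share exon sequence with a gene on the opposite strand.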

How the data were processed

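Messenger RNA of 6 libraries (3 control, 3 RCE) was sequenced after TRIzol extraction and TruSeq stranded library preparation, per the labels' protocols. The authors deposited 1 FPKM value per gene and library. The submitters' processing notes list Cuffdiff 2.2.1, Cufflinks, STAR 2.5.4 and the build mm10, with no role for any. Annotation, filters and whether counting used strand: not given in the sources used here. A transcript that takes more of a library lowers the FPKM of all others there.

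FPKM are not counts, so log2(FPKM + 1) was tested, for the 10870 genes whose mean reached 1 FPKM. The test was limma 3.58.1 (R 4.3.3, intensity trend, 2-sided, Benjamini-Hochberg, threshold 0.05), without a block. The code was tested on simulated data with independent libraries and no shared replicate effect, so the replicate 1 gap was not covered. Mycn and ratios were compared by exact permutation tests. Alternatives were other pseudocounts (0.1, 0.5), filters, scalings, no trend, array weights, the replicate block and left-out libraries; block with scaling was added after seeing the data. Deviations from the group means correlated at 0.92, 0.62 and 0.68 for libraries of the same number, which is above the limit of 0.1 set for pairing, although replicates 2 and 3 correlated across numbers as much (0.77 and 0.72). These correlations set replicate 1 apart in both groups but do not show how replicates 2 and 3 pair. The block takes equal numbers as pairs by assumption. Blocked values are given beside the fit without a block where they change a call.

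Depth is that at which FPKM of genes with 1 GENCODE M21 transcript (0.02 to 0.5 FPKM) are whole fragments within 0.1: 54150000, 49400000 and 49300000 in control replicates 1 to 3 and 45650000, 58950000 and 56050000 with RCE, where 100% of 297 to 327 values were whole. All 21853 identifiers were in that annotation. The members and lists were chosen with earlier results of these data known. Values of every library are given for the MYC factors, polymerase I genes, called members and the 2 most abundant of each other role; of each further list, up to 3 called genes with the smallest p and a mean no lower than 5 FPKM are named.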

Additional observations from a re-analysis of the deposited data

How the results depend on the processing

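The main counts were 1910 higher and 736 lower of all tested genes and 9 higher and 1 lower of the members. A minimum mean of 5 FPKM gave 867 and 485 of all and 5 and 0 of the members. Median-of-ratios scaling gave 924 of all and 3 members higher, and quantile normalization 785 of all and 5 members higher with 0 lower. With no low-value filter 0 members were lower. Array weights gave 5047 and 1731 of all and 28 members higher. The replicate block gave 5060 and 1730 of all and 27 and 2 of the members, with scaling added 2875 and 2996 of all and 12 and 4 of the members, and leaving out both libraries numbered 1 gave 4360 and 1481 of all and 24 members higher. Leaving out 1 library gave 677 to 2029 higher and 399 to 739 lower of all, and 2 to 8 higher and 0 to 1 lower of the members. The members' median was 0.132 and became 0.054 with median-of-ratios scaling, with or without the block. Its excess over all genes was 0.054, and 0.106 with no low-value filter and 0.084 with quantile normalization. No called member changed sign under any of the 17 alternatives. The block ended no member's call and added 19. Of the 10 called members, Dkc1 and Cad were called in all 17. The cause of each dependence was not tested. With 3 libraries per group, the 95% interval for Myc (-0.40 to 0.55) is wider than most members' changes.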

Other observations

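Other genes of the MYC network that were no members showed the following values. Mxi1, a further MAX partner that represses MYC sites, was at 5.64, 5.25 and 5.03 FPKM in control and 2.99, 2.64 and 2.67 FPKM with RCE, so that every RCE value lay below every control value. Its change was -0.74 (SE 0.058, limma adjusted p = 7.08e-04, and -0.81 with adjusted p = 6.58e-04 under median-of-ratios scaling). Mxi1 was named after its value was seen, and among the 14 of 15 other network genes that passed the filter it was the 1 called lower. Called lower were 7.14% and higher 14.3% of these 14, beside 6.77% and 17.6% of all tested genes. The 2 called higher were Mga, a large MAX partner (9.68, 10.1 and 9.81 FPKM in control and 12.1, 12.8 and 12.4 with RCE, 0.30, limma adjusted p = 0.00489), and Skp2, a ubiquitin ligase subunit that acts on MYC and on cell cycle inhibitors (1.65, 1.52 and 1.52 FPKM in control and 2.42, 2.36 and 2.37 with RCE, 0.40, limma adjusted p = 0.00156), also named after its value was seen. Mlx, which partners MXD proteins and MNT outside the MAX pairs, was at 13.7 and 13.8 FPKM (0.01, limma adjusted p = 0.865). The MAX partners did not move as a block: Mnt and Mxi1 fell, Mga rose, and Mxd1 and Mxd4 did not pass the test (limma adjusted p = 0.206 and 0.3), although both did with array weights (0.00659 and 0.0375).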
